A study of Arabidopsis thaliana with 4 samples.

Results

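*GRP7* (AT2G21660), *GRP8* (AT4G39260), *PTB1* (AT3G01150), *PTB2* (AT5G53180), and *PTB3* (AT1G43190) encode splicing regulators that control their own mRNA through alternative splicing and decay. These 5 genes were chosen by name, as known cases of this control, from the 22409 loci of the deposited table, and each of the 5 has a value in every library. Arabidopsis seedlings of 4 genotypes were grown at 23°C under long days on MS plates and pooled at ZT16, that is 16 h after lights on, and 1 library was sequenced for each genotype. The genotypes are wild type (WT, Col-0), *upf1-5*, *upf3-1*, and the *upf1-5 upf3-1* double mutant made by crossing. Both alleles are T-DNA insertions in genes of nonsense-mediated mRNA decay (NMD), the pathway that removes mRNAs on which translation stops too early. No genotype has a replicate, so no difference could be set against a spread between samples, and no test was made.

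GRP7 and GRP8 are small RNA-binding proteins with an RNA recognition motif followed by a glycine-rich tail. Both mRNAs are under circadian control, and GRP7 binds its own pre-mRNA and that of *GRP8*, which shifts splicing to a form with a premature stop that NMD removes. PTB proteins bind pyrimidine-rich stretches near splice sites. PTB1 and PTB2 direct the inclusion of an extra exon with a premature stop in their own and each other's mRNA, so that a high protein level lowers the productive mRNA. The values here are per gene in FPKM, which the study defines as fragments by length of transcript and number of mapped reads. They add up all splice forms of a gene and therefore cannot tell a productive from an unproductive form. The libraries were scaled to each other by the defaults of the authors' software. The median ratio to WT over all loci was 1.0, 0.991, and 1.01 in *upf1-5*, *upf3-1*, and the double mutant.

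The libraries bear on the members in several ways. *UPF1* had 23.9 FPKM in WT against 3.18 and 8.27 FPKM in *upf1-5* and the double mutant. *UPF3* had 20.8 FPKM in WT against 6.36 and 7.10 FPKM in *upf3-1* and the double mutant, so each mutated gene was lower where the labels say it is mutated. The FPKM summed over all loci was 1040984 in WT against 997069, 797325, and 775454 in *upf1-5*, *upf3-1*, and the double mutant. The 100 most abundant loci held 24.5% of that sum in WT and 16.2% in the double mutant. A gene was counted as changed when its FPKM differed at least 2-fold and reached 1 FPKM in at least 1 of both libraries. By this rule 10% of loci in *upf1-5*, 21.5% in *upf3-1*, and, when both were mutated, 21.9% differed from WT. Dividing each library by its summed FPKM, a scaling chosen after seeing the data, multiplies every ratio to WT by 1.04, 1.31, and 1.34 in *upf1-5*, *upf3-1*, and the double mutant. It moves the share of higher loci among the changed ones from 68.5% to 90.4% in the double mutant and from 67.9% to 87.8% in *upf3-1*. Ratios between genes of the same library do not depend on this choice.

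None of the 5 genes was called changed in any mutant, as deposited or under any scaling tried. As deposited, *GRP7* came closest, with a level 1.86-fold below WT in *upf3-1* and 1.64-fold below WT in the double mutant. Scaled to the summed FPKM, *PTB1* came closest, at 1.86 times WT in the double mutant. *PTB1* and *PTB2* were above WT in all 3 mutants, by 1.16 to 1.38 times, and *GRP8* and *PTB3* stayed within 1.2-fold of WT as deposited.

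**Figure D1:**
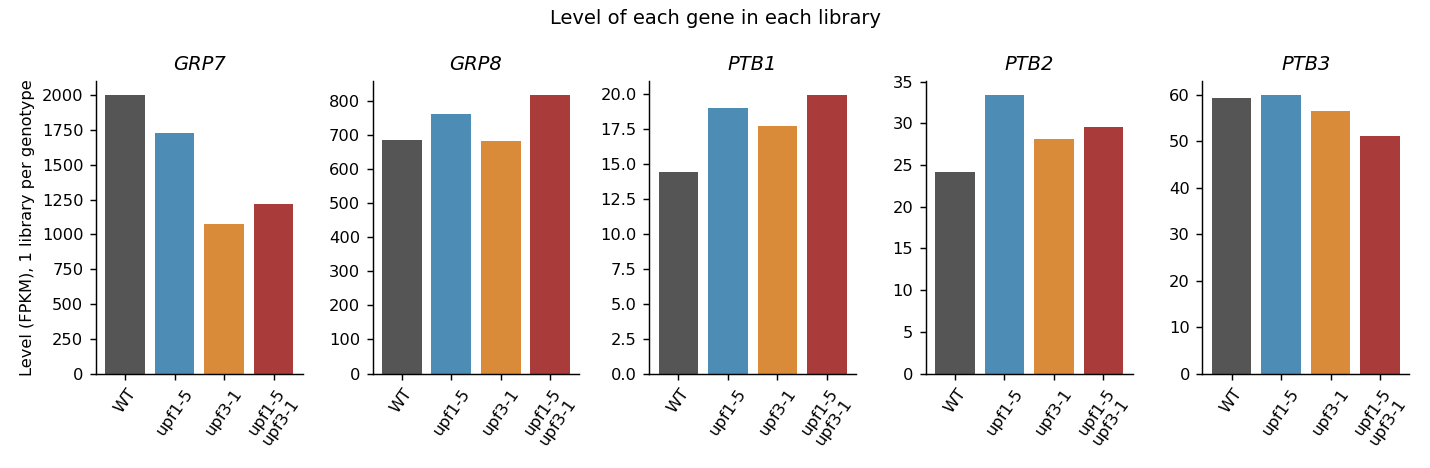
Level of each of the 5 genes (vertical axes, FPKM, each from 0) in the 1 library of each genotype. *GRP7* is lowest in *upf3-1* and the double mutant, *PTB1* and *PTB2* are lowest in WT, and no error bars are drawn because there are no replicates.

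*GRP7* is found on the minus strand of chromosome 2 (9265084 to 9266557, TAIR10.1). Its main model has 2 exons and encodes 176 amino acids, 39.8% of them glycine. *GRP8* is found on the minus strand of chromosome 4 (18273829 to 18275216). Its main model also has 2 exons and encodes 169 amino acids, 38.5% of them glycine. The proteins are identical at 80.2% of 167 aligned positions. The longest identical run between their main mRNAs is 39 nt, so no stretch of 50 nt is shared by both.

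The promoters of both genes are shown because their mRNAs follow the clock. The evening element AAAATATCT, the letters to which the morning clock proteins CCA1 and LHY bind, was searched on both strands from 250 bases before to 50 bases after each annotated gene start. It occurs 3 times in this window of *GRP7* and 1 time in that of *GRP8*, against at least 1 time in 2.82% of 27443 such windows of protein-coding genes. None of the *PTB* windows holds it. The shorter core AATATCT, which the full element includes, is found in 11.5% of the windows, and *GRP8* has 1 further copy of it. In the sequences that follow, taken from the RefSeq reference TAIR10.1 and written along the strand of the gene, capitals mark the element or its reverse complement. A match of letters is a description and no evidence of binding.

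GRP7, chr2:9266615-9266644, minus strand: tttgacatatgAGATATTTTtttgctccac

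GRP7, chr2:9266594-9266623, minus strand: ttgctccactgAGATATTTTtctttgtccc

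GRP7, chr2:9266570-9266599, minus strand: tgtcccaagatAAAATATCTtttctcgcat

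GRP8, chr4:18275210-18275239, minus strand: tattcttacaaAGATATTTTttgctcgaaa

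The first base of the elements of *GRP7* lies 76, 55, and 31 bases before its annotated start, and that of *GRP8* lies 12 bases before its start. The *GRP7* window also holds a G-box, CACGTG, the letters bound by several bHLH and bZIP factors, which is found in 7.68% of the windows.

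*GRP7* was the more abundant of the pair in every library. It had 2002.8 FPKM in WT against 1731.2, 1077.6, and 1220.1 FPKM in *upf1-5*, *upf3-1*, and the double mutant. The *upf3-1* library was the lowest and WT the highest, and both libraries with *upf3-1* lay below both without it. Its ratio to WT was 0.864, 0.538, and 0.609 in *upf1-5*, *upf3-1*, and the double mutant. In *upf3-1* 17.8% of all loci were at least 1.5-fold below WT and in the double mutant 17.3% were, so *GRP7* belongs to a large group there. Of all loci compared, 8.87% had a lower ratio to WT than *GRP7* in *upf3-1*, 12.9% in the double mutant, and 26.7% in *upf1-5*. Counted in both directions, as for the *PTB* genes below, 25.1% of loci differed from WT at least as much in *upf3-1*. In the double mutant 33.1% did, and in *upf1-5* 58.1%.

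Abundant loci were lower as a class in the libraries with *upf3-1*. Among the 4010 loci with the highest mean level, which are the top 1 of 5 classes of equal size, the median log2 ratio to WT was -0.08, -0.30, and -0.35 in *upf1-5*, *upf3-1*, and the double mutant, whereas the log2 ratio of *GRP7* was -0.21, -0.89, and -0.71. Scaling to the summed FPKM adds 0.38 and 0.42 to the last 2 of each of these values, which turns the medians of the class above 0 but not the values of *GRP7*. Within this class, 12.8% of loci lay below *GRP7* in *upf3-1* and 25.8% did in the double mutant. By rank, *GRP7* was the 30th most abundant locus in WT, the 28th in *upf1-5*, the 46th in *upf3-1*, and the 27th in the double mutant. As a share of the summed FPKM, *GRP7* made up 0.192% in WT against 0.174%, 0.135%, and 0.157% in *upf1-5*, *upf3-1*, and the double mutant. With libraries scaled to the same summed FPKM, the ratio of *GRP7* to WT was 0.703 in *upf3-1* and 0.818 in the double mutant. The direction was the same, and the size of the difference was smaller.

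*GRP8* did not follow *GRP7*. It had 682.9 FPKM in WT against 761.4, 682.3, and 816.3 FPKM in *upf1-5*, *upf3-1*, and the double mutant. The double mutant was the highest, and WT and *upf3-1* were level. Its ratio to WT was 1.11, 0.999, and 1.2 in *upf1-5*, *upf3-1*, and the double mutant, and in *upf3-1* the direction turns to 1.03 or more under each of 3 other scalings of the libraries. Of the loci in the same class of abundance, 78.5%, 70.6%, and 86.0% had a lower ratio than *GRP8* in *upf1-5*, *upf3-1*, and the double mutant. By rank, *GRP8* was 188th in WT against 138th, 95th, and 58th in *upf1-5*, *upf3-1*, and the double mutant.

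The balance of the pair is independent of the scaling. *GRP7* over *GRP8* was 2.93 in WT against 2.27, 1.58, and 1.49 in *upf1-5*, *upf3-1*, and the double mutant. WT had the highest ratio, and the libraries with *upf3-1* had the lowest. *GRP7* made up 74.6% of the sum of both genes in WT and 59.9% in the double mutant. The sum does depend on the scaling. It was 2685.7 FPKM in WT against 2492.6, 1760.0, and 2036.4 FPKM in *upf1-5*, *upf3-1*, and the double mutant, and with libraries scaled to the summed FPKM its ratio to WT in the double mutant turns from 0.758 to 1.02.

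Genes that mark organs moved with the same libraries as *GRP7*. The leaf genes *RBCS1A* and *RBCS2B*, for the small subunit of Rubisco, were lower in both libraries with *upf3-1*. *RBCS1A* had 18829.5 FPKM in WT against 16522.1, 9143.5, and 8393.2 FPKM in *upf1-5*, *upf3-1*, and the double mutant. *RBCS2B* had 8487.6 FPKM in WT against 6996.9, 4210.7, and 3580.0 FPKM in the same order. Over all loci, 7.64%, 14.6%, and 15.0% were called higher in *upf1-5*, *upf3-1*, and the double mutant, and 2.4%, 6.91%, and 6.91% lower. Of the 4 shoot markers, 2 were called lower as deposited in each of both libraries with *upf3-1* and 1, *CAB2*, was called higher. The ratio to WT in *upf3-1* and the double mutant was 0.486 and 0.446 for *RBCS1A* and 0.496 and 0.422 for *RBCS2B*. Scaling to the summed FPKM multiplies these by 1.31 and 1.34, so both genes stay below WT but are no longer called. *CAB2*, for a light-harvesting protein, and *CAB3* are close copies whose reads the counting may split. All 3 root hair markers were called higher in *upf3-1* and in the double mutant and none in *upf1-5*, for example *EXPA7*, for an expansin, with 3.20 FPKM in WT against 3.94, 14.6, and 16.9 FPKM in *upf1-5*, *upf3-1*, and the double mutant. Their part in the level of *GRP7* was not tested, and in RNA of whole seedlings fewer cells of a type and less RNA per cell cannot be told apart. Of the seed genes, *CRU3*, for a storage protein, was under 1 FPKM in the other libraries and had 8.94 FPKM in the double mutant. *CRA1* and *OLEO1* have a value in 2 libraries only, with 3.86 and 1.81 FPKM in *upf3-1* and 13.2 and 3.65 FPKM in the double mutant.

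The *PTB* genes differ in what the annotation says of their splice forms, and the models are described because an unproductive form is the known route of their control. *PTB1* (chromosome 3, 51496 to 54544, plus strand) and *PTB2* (chromosome 5, 21568131 to 21571904, minus strand) encode proteins of 399 and 429 amino acids that are identical at 69.2% of 399 aligned positions. *PTB3* (chromosome 1, 16275108 to 16278742, minus strand) encodes 432 amino acids and is identical to PTB1 at 35.3% and to PTB2 at 30.8% of the aligned positions. Each RefSeq model was read from the start codon of the model with the longest coding sequence to the first stop in frame. A stop more than 50 nt before the last exon junction, a usual mark of an NMD substrate in plants, was found in 2 of 4 models of *PTB1* and in 4 of 6 models of *PTB2*. None of the 3 models of *PTB3*, of the 2 of *GRP7*, or of the 4 of *GRP8* has one. The other models of *GRP7* and *GRP8* lack 51 nt, or 129 to 231 nt, and keep the frame and the stop of the main model. The splice forms of *GRP7* and *GRP8* that are known from experiments to retain part of the intron are not among the models read here.

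In models 3 and 4 of *PTB1*, an extra exon of 102 nt (chr3:52645-52746) ends the reading frame after 137 codons, 672 nt before the last junction in model 3. In models 2 and 3 of *PTB2*, an extra exon of 61 or 58 nt that ends at the same base (chr5:21570834-21570894) stops the frame after 144 or 143 codons, 500 nt before the last junction. Model 5 of *PTB2* extends the exon before by 210 nt and stops after 138 codons, and model 4 adds 28 nt further on and stops after 178 codons. The annotation gives most of these models a shorter coding sequence that begins downstream, such as 825 nt in model 3 of *PTB1* against 1200 nt in model 1. The premature stops are given here in capitals, in mRNA sense with T for U, from the reference TAIR10.1.

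PTB1 models 3 and 4, chr3:52650-52679, plus strand: gatgcctctttatTAAaatctttctggaga

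PTB2 models 2 and 3, chr5:21570842-21570871, minus strand: ttcagtggcagccTAAtgcattaggagaaa

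PTB2 model 4, chr5:21569981-21570010, minus strand: aagcatccctaggTGAcagttgtattaaat

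PTB2 model 5, chr5:21571009-21571038, minus strand: tggatcacacaccTAAttggtttcgttaga

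**Figure D2:**
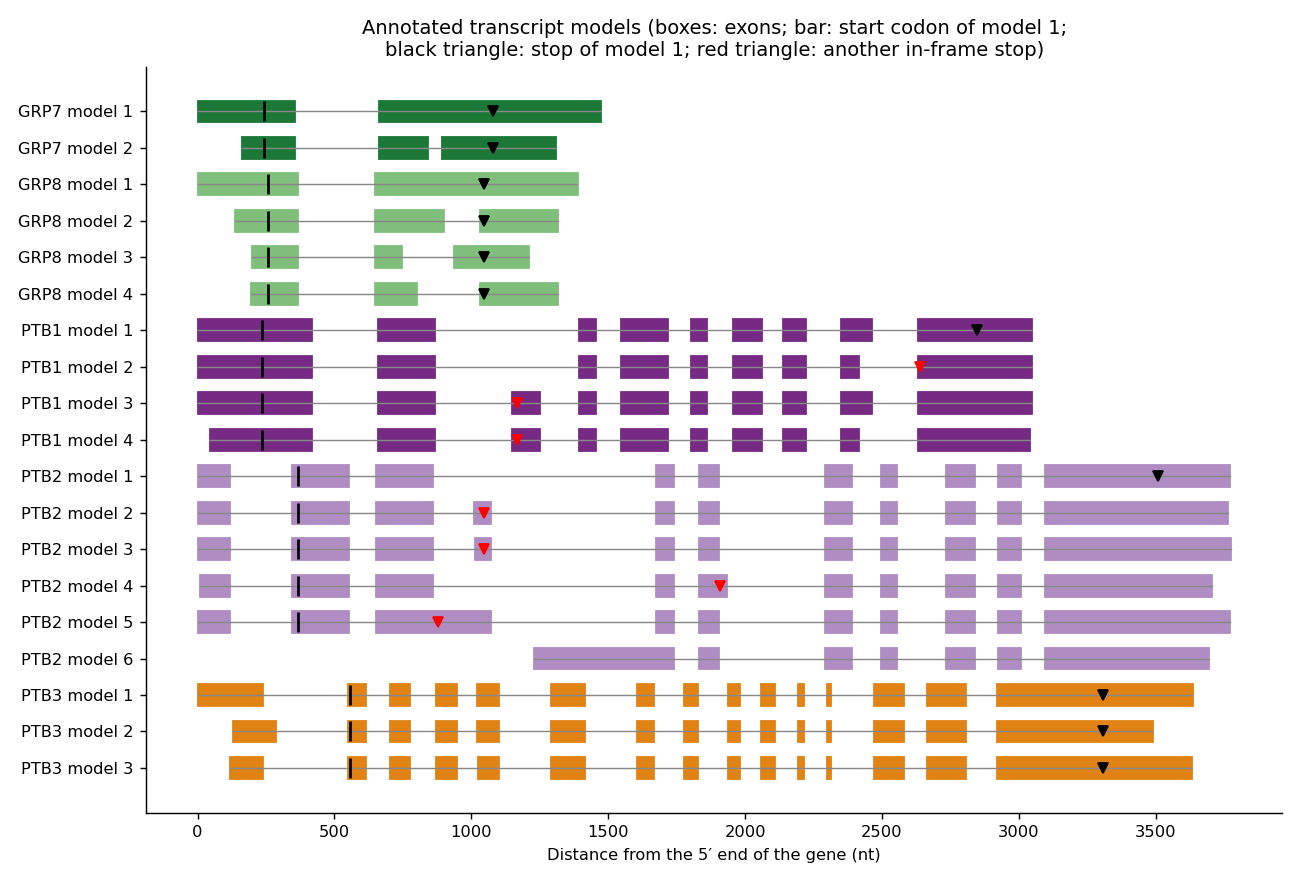
Annotated RefSeq models of the 5 genes, drawn to scale as distance in nt from the 5′ end of each gene, with boxes for exons, a bar at the start codon of model 1, a black triangle at the stop of model 1, and a red triangle where reading from that start codon ends at another stop. Early red triangles occur in 2 models of *PTB1* and 4 of *PTB2*. The red triangle of *PTB1* model 2 lies after the last junction, and *PTB2* model 6 lacks the start codon.

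*PTB1* had 14.4 FPKM in WT against 19.0, 17.7, and 19.9 FPKM in *upf1-5*, *upf3-1*, and the double mutant. WT was the lowest of the 4 libraries, and the double mutant was the highest. The ratio to WT was 1.32, 1.23, and 1.38 in *upf1-5*, *upf3-1*, and the double mutant. Of all loci compared, 33.8%, 64.6%, and 49.0% differed from WT at least as much in the same order, so the size of the difference is common in these libraries.

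*PTB2* had 24.2 FPKM in WT against 33.4, 28.1, and 29.6 FPKM in *upf1-5*, *upf3-1*, and the double mutant. WT was again the lowest, and *upf1-5* was the highest. The ratio to WT was 1.38, 1.16, and 1.22 in *upf1-5*, *upf3-1*, and the double mutant, and 28.5%, 73.4%, and 65.4% of all loci differed from WT at least as much. Among loci of its own class of abundance, whose median log2 ratio was -0.03 in *upf1-5*, 89.7% had a lower ratio than *PTB2* there. In *upf3-1* and the double mutant 72.8% and 77.7% had. For *PTB1* in its own class these shares were 83.2%, 70.1%, and 77.9% in *upf1-5*, *upf3-1*, and the double mutant. The ratio of *PTB1* and *PTB2* to WT was above 1 in each mutant under every scaling and pseudocount tried, but none of these could have brought it below 1. Each scaling divides the mutant libraries by a factor below 1, which raises their ratios to WT, and a pseudocount cannot carry a ratio across 1.

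*PTB3* had 59.3 FPKM in WT against 60.0, 56.6, and 51.1 FPKM in *upf1-5*, *upf3-1*, and the double mutant. WT and *upf1-5* were nearly level, and the double mutant was the lowest. The ratio to WT was 1.01, 0.955, and 0.862 in *upf1-5*, *upf3-1*, and the double mutant, and with the libraries scaled to the same summed FPKM the last 2 turn to 1.25 and 1.16. Of all loci compared, 96.1%, 91.8%, and 73.5% differed from WT at least as much in the same order.

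The ratios between the *PTB* genes, which no scaling of libraries alters, differed between WT and the mutants. *PTB3* over *PTB1* was 4.12 in WT against 3.17, 3.20, and 2.57 in *upf1-5*, *upf3-1*, and the double mutant. *PTB3* over *PTB2* was 2.45 in WT against 1.8, 2.02, and 1.73 in *upf1-5*, *upf3-1*, and the double mutant. Both ratios were highest in WT and lowest in the double mutant. *PTB3* made up 60.5% of the summed level of the family in WT against 53.4%, 55.3%, and 50.8% in *upf1-5*, *upf3-1*, and the double mutant. *PTB2* over *PTB1* moved less, between 1.49 in the double mutant and 1.76 in *upf1-5*. The sums do depend on it. The sum of *PTB1* and *PTB2* was 38.6 FPKM in WT against 52.3, 45.8, and 49.5 FPKM in *upf1-5*, *upf3-1*, and the double mutant, whereas that of all 3 genes lay between 97.9 and 112.3 FPKM. Scaled to the summed FPKM, the sum of all 3 genes was 1.2, 1.37, and 1.38 times WT in the same order.

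**Figure D3:**
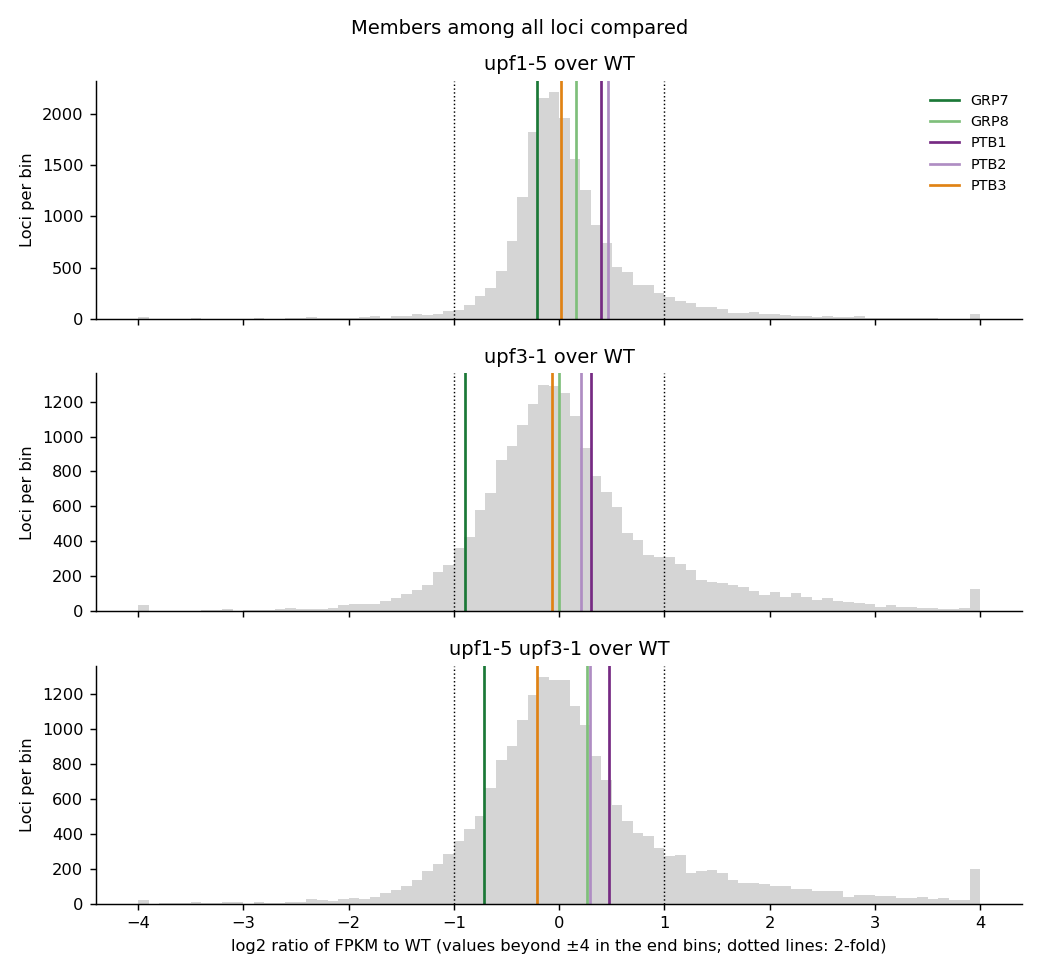
Number of loci (vertical axis) by log2 ratio of FPKM to WT (horizontal axis, bins of 0.1) in the 3 mutants, with a coloured line for each of the 5 genes and dotted lines at 2-fold. All 15 lines lie inside the 2-fold limits, and *GRP7*, at -0.89 in *upf3-1* and -0.71 in the double mutant, is the line farthest from 0.

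The libraries also give the level of the members with each mutation in the presence of the other. In direct comparison, 14.1% of loci differed 2-fold between the double mutant and *upf1-5*, 11.4% between the double mutant and *upf3-1*, and 14.1% between *upf3-1* and *upf1-5*, and none of the 5 genes did. For *GRP7*, the double mutant had 0.705 times the level of *upf1-5* and 1.13 times that of *upf3-1*. The *upf3-1* mutation thus went with less *GRP7* in both backgrounds, with ratios of 0.538 and 0.705, whereas *upf1-5* went with less in WT, at 0.864, and with more in *upf3-1*. Multiplying the ratios of both single mutants gives 0.465, and the double mutant was at 0.609.

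For *GRP8* the double mutant had 1.2 times the level of *upf3-1* and 1.07 times that of *upf1-5*. For *PTB1* these values were 1.13 and 1.05 times, and the double mutant, at 1.38, lay below the product of the single mutants' ratios, 1.62. For *PTB2* they were 1.05 and 0.886 times, and the double mutant, at 1.22, lay below the product of 1.6. For *PTB3* they were 0.903 and 0.852 times. Over 20049 loci, the log2 of the double mutant's ratio over the product had a median of -0.02 and quartiles of -0.44 and 0.36. The value of *GRP7*, 0.39, lies just above the upper quartile, and those of *PTB2*, -0.39, *PTB1*, -0.23, *PTB3*, -0.16, and *GRP8*, 0.10, lie within the quartiles.

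**Figure D4:**
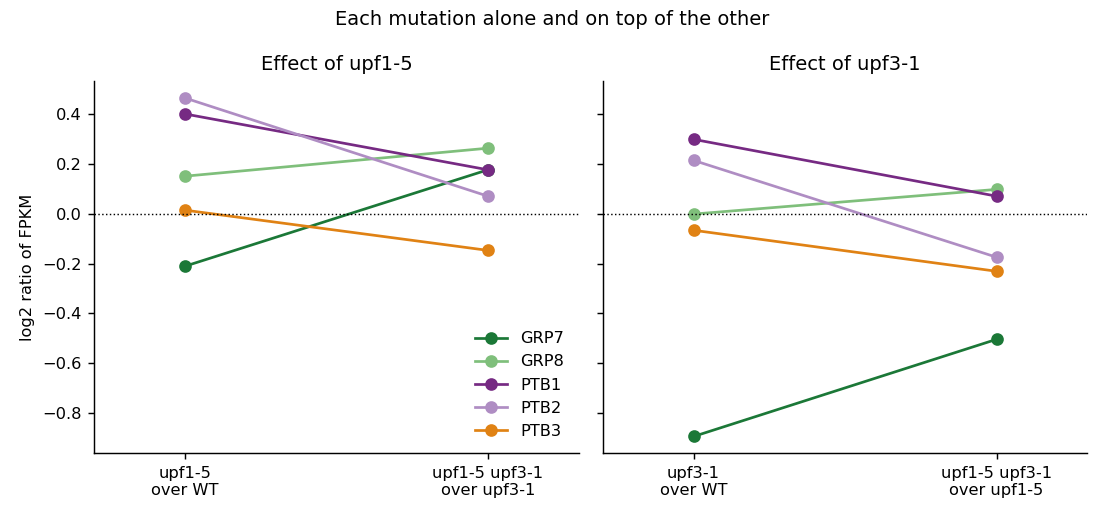
Log2 ratio of FPKM (vertical axis) for the effect of *upf1-5* (left) and of *upf3-1* (right), each in WT and on top of the other mutation, with 1 line for each gene. The line of *GRP7* crosses 0 for *upf1-5*, from a ratio of 0.864 to 1.13, and stays below 0 for *upf3-1*, and both lines of *PTB1* stay above 0 and come closer to it.

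Other genes of these pathways were taken from lists made with earlier results of these data known, so the lists are a description. The first holds 8 other glycine-rich RNA-binding proteins of the RBG and RZ families, most of them in mitochondria or the nucleus, of which 7 reached 1 FPKM. None was called in any mutant, against 10%, 21.5%, and 21.9% of all loci in *upf1-5*, *upf3-1*, and the double mutant. Their median log2 ratio to WT was 0.08, -0.05, and -0.13 in *upf1-5*, *upf3-1*, and the double mutant, against a median between -0.01 and 0.01 over all loci. The range in *upf3-1* was -0.30 to 0.42, so *GRP7*, at -0.89, lay below each of them. *GR-RBP2*, a relative in mitochondria, had 273.0 FPKM in WT against 269.4, 221.6, and 214.2 FPKM in *upf1-5*, *upf3-1*, and the double mutant.

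Of 30 other hnRNP-like genes, 29 were compared, and only AT5G55550, for a protein with RNA recognition motifs, was called, with 14.6 FPKM in WT against 12.4, 33.0, and 20.7 FPKM in *upf1-5*, *upf3-1*, and the double mutant. Their median was -0.07, -0.24, and -0.21 in *upf1-5*, *upf3-1*, and the double mutant, with 21 of 29 below WT in *upf3-1* and 24 of 29 in the double mutant. Scaled to the summed FPKM, the last 2 medians lie above 0. *LIF2*, which encodes an hnRNP Q-like partner of a Polycomb protein, had the highest ratio to WT of them in the double mutant, with 32.0 FPKM in WT and 50.8 FPKM there. None of 16 core splicing factors, for the U1 particle, U2AF, and the cap-binding complex, was called. Their median was -0.14 in *upf3-1* and -0.02 in the double mutant, and in *upf1-5* 8 of the 16 lay above WT and 8 below. Of all loci, 10%, 21.5%, and 21.9% were called in *upf1-5*, *upf3-1*, and the double mutant. Of the 52 genes of these 3 lists, 1 was called in *upf3-1* and none in the other mutants. The shares of all loci do not separate abundant from rare loci. Over the 52 genes, the number with a higher ratio than *PTB1* was 2, 9, and 4 in *upf1-5*, *upf3-1*, and the double mutant. For *PTB2* these numbers were 1, 11, and 6. The number with a lower ratio than *GRP7* was 12, 0, and 2 in the same order.

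**Figure D5:**
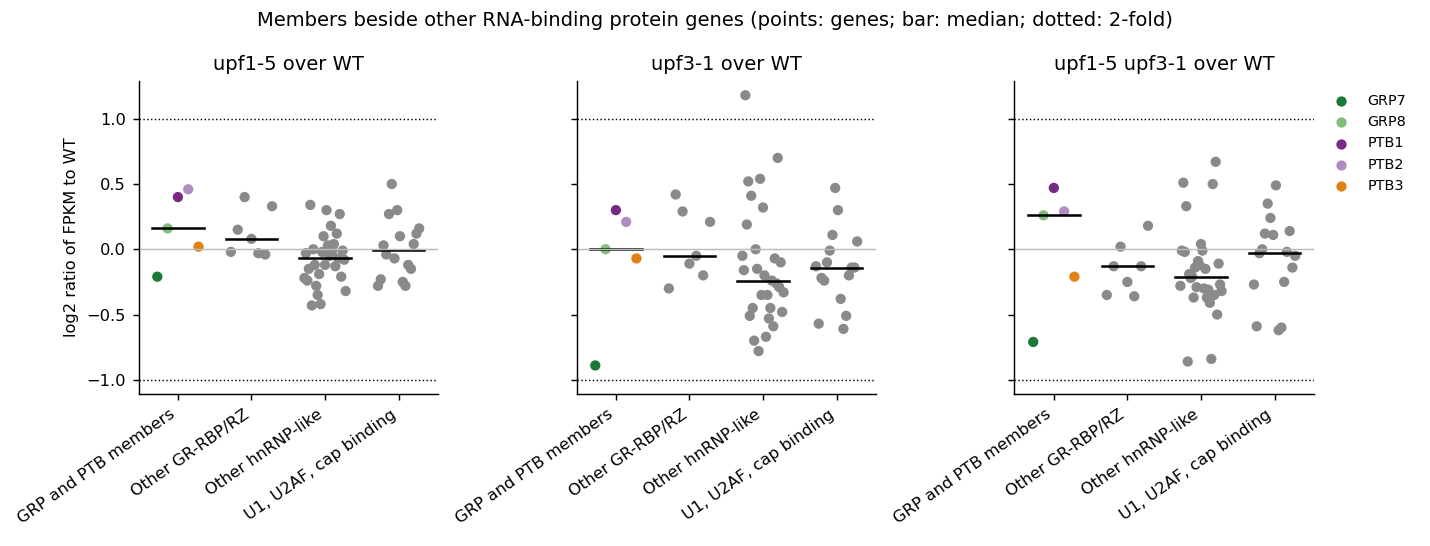
Log2 ratio of FPKM to WT (vertical axis) in the 3 mutants, with 1 point for each gene, for the 5 members (coloured) and for the lists of glycine-rich, hnRNP-like, and core splicing genes (grey), with bars at medians and dotted lines at 2-fold. *GRP7* lies below all 52 other genes in *upf3-1*, and *PTB1* and *PTB2* lie above most of them in *upf1-5*.

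Of the clock genes upstream of *GRP7* and *GRP8*, some were called. Of 11 genes, 10 were compared in the single mutants, and 1 was called higher and 1 lower in *upf1-5*, 2 higher in *upf3-1*, and 4 higher in the double mutant. Over all loci, 7.64% were called higher and 2.4% lower in *upf1-5*, 14.6% and 6.91% in *upf3-1*, and 15.0% and 6.91% when both were mutated, so 2 of 10 in *upf3-1* is near the share of all loci. The morning regulators *CCA1* and *LHY*, which act on evening elements, were low at this time of day, with 2.26 and 1.90 FPKM in WT. *LHY* was called higher in *upf3-1*, at 8.44 FPKM, and in the double mutant, at 5.91 FPKM, and had 3.14 FPKM in *upf1-5*. *CCA1* was called lower in *upf1-5*, at 0.523 FPKM, and had 2.85 and 3.10 FPKM in both libraries with *upf3-1*. *RVE8*, a related activator of evening genes, was called higher in all 3 mutants, with 6.02 FPKM in WT against 15.2, 17.8, and 24.2 FPKM in *upf1-5*, *upf3-1*, and the double mutant. *GI* and *PRR9* were called higher in the double mutant, where *PRR9*, a daytime repressor of the clock, had 2.11 FPKM against 0.112 FPKM in WT. The evening genes *TOC1* and *ELF4* were not called, with 68.9 and 179.0 FPKM in WT and 60.4 and 119.5 FPKM in the double mutant. The part of these genes in the level of *GRP7* was not tested.

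A further list holds 9 genes linked to the action of these proteins in flowering, light signalling, or defence. In *upf1-5* 2 were called higher and 1 lower, in *upf3-1* 3 and 2 of the 8 compared there, and in the double mutant 5 and 1. The same shares of all loci apply, 7.64% and 2.4%, 14.6% and 6.91%, and 15.0% and 6.91% in the same order. Whether the 5 members play a part in the levels of these genes was not tested. *FLC*, a repressor of flowering that GRP7 lowers, had 12.3 FPKM in WT against 35.9, 30.1, and 63.0 FPKM in *upf1-5*, *upf3-1*, and the double mutant. *PR1*, a defence gene that is raised in plants with more GRP7, had 1.6 FPKM in WT against 2.87, 4.31, and 65.5 FPKM in the same order of mutants. AT2G33830, a gene of the dormancy and auxin associated family, had 455.9 FPKM in WT against 104.9, 21.8, and 83.2 FPKM in the same order of mutants. *PIF6* (*PIL2*), a light signalling factor whose splicing PTB proteins alter, had 2.77 FPKM in WT against 3.12, 8.36, and 9.69 FPKM. *FLS2*, an immune receptor whose mRNA GRP7 binds, was called lower in *upf3-1*, with 12.2 FPKM in WT and 6.01 FPKM there. The defence gene *PR5* was called higher in the double mutant, with 5.62 FPKM in WT and 24.9 FPKM there. *PR2* (*BGL2*), another defence gene, was called higher in *upf1-5* and the double mutant, but close to the limit of 1 FPKM. It had 0.447 FPKM in WT against 1.18, 0.139, and 1.65 FPKM in *upf1-5*, *upf3-1*, and the double mutant. *FLM* (*MAF1*), a flowering repressor known for its splice forms, stayed between 49.0 and 67.2 FPKM.

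*GRP7* and *GRP8* are also induced by cold, and the plants here were not chilled. Of 10 cold genes, the 3 *CBF* genes, whose products switch on the cold response, stayed under 1 FPKM in the libraries where they have a value. Of the other 7, 2 were called higher in *upf1-5*, 1 higher and 1 lower in *upf3-1*, and 2 lower in the double mutant. Over all loci, 7.64% were called higher in *upf1-5* and 6.91% lower in the double mutant. In *upf3-1*, 14.6% of all loci were called higher and 6.91% lower, so 1 of 7 in each direction there is near the share of all loci. *COR15A*, for a chloroplast protein that protects membranes, had 5.15 FPKM in WT against 42.1, 5.72, and 2.36 FPKM in *upf1-5*, *upf3-1*, and the double mutant. Its neighbour *COR15B* had 29.6 FPKM in WT against 63.3, 10.5, and 14.9 FPKM, and the close copies may share reads. *KIN2* was called lower in the double mutant, with 74.3 FPKM against 181.5 FPKM in WT, and *ERD10*, for a dehydrin, was called higher in *upf3-1*.

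Genes with the pattern nearest to that of each member were found among 10332 other annotated genes with 10 FPKM or more in every library, by the root mean square difference of the 3 log2 ratios to WT. With 4 libraries such a likeness is weak, since 111 genes lay within 0.1 of *GRP7*, 196 of *GRP8*, 70 of *PTB1*, 52 of *PTB2*, and 411 of *PTB3*. The nearest to *GRP7* were AT4G33865, for ribosomal protein S29, at 0.0262, AT2G38450 at 0.0268, and AT5G19370 at 0.0279. AT4G33865 had 1299.7 FPKM in WT and 695.0 FPKM in *upf3-1*. The nearest to *GRP8* were *SUO* at 0.00901, the KH-domain gene AT5G56140 at 0.0140, and *ARI8* at 0.0201. *PTB1* was nearest to *RMR1* at 0.00541, AT2G28570 at 0.0413, and *Fes1C* at 0.0422, and *PTB2* to AT1G45332, for an elongation factor G, at 0.0247, AT3G25680 at 0.0263, and AT5G25360 at 0.0280. *PTB3* was nearest to *EMB1144*, for chorismate synthase, at 0.0121, AT5G09770 at 0.0145, and AT5G11910 at 0.0164. Among the members themselves, *PTB1* and *PTB2* were closest, at 0.121, and *GRP7* and *PTB1* were farthest apart, at 1.03. *GRP7* and *GRP8* lay 0.791 apart.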

How the data were processed

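Per the labels and the methods, the authors aligned reads to TAIR10 with TopHat and Bowtie, assembled and quantified them with Cufflinks, and compared libraries with Cuffdiff. The labels name a kit for mRNA, the methods a kit for total RNA without rRNA. The deposited table has 127437 lines for 6 pairs of libraries. The deposited FPKM column adds up the libraries of each pair, the deposited fold is the ratio of the higher to the lower library, and the deposited q-value, the authors' corrected p-value, was not used. The double mutant carries another name in the table, which was matched because the other 3 names match the other genotypes and because the study tabulates FPKM of this library under the double mutant.

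Each library's FPKM was computed by weighted least squares from the sums, folds, and directions, and the sums were met within 0.00751 FPKM. On 3000 simulated loci, the largest error at 1 FPKM or more was 0.268%. The deposited FPKM carries no fragment counts, so depth and counting error are unknown. Ratios carry no pseudocount, and all ratios to WT share the WT library. No p-value was computed, since each genotype has 1 library. The members, lists, and comparisons were chosen with earlier results of these data known, and the full evening element was searched after its core had been seen. Named are the members, genes of the lists called at 2-fold, with up to 3 given by value, and the 3 nearest patterns per member. *GR-RBP2*, *LIF2*, *TOC1*, *ELF4*, and *FLM*, and the values of *RVE8*, *PIF6*, *FLS2*, *PR2*, and *PR5*, were added after their values were seen. Alternatives were other scalings, pseudocounts of 0.1 and 1, other filters and folds, and annotated genes alone. Models and sequences are from RefSeq TAIR10.1 and need not match the authors' models. Python 3.11.15, NumPy 2.4.6, pandas 2.3.3, and matplotlib 3.10.9 were used.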

Additional observations from a re-analysis of the deposited data

Results flagged for a closer look

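For some members, the ratios for the same mutation lay on opposite sides of 1 in its 2 backgrounds. There was 1 library on each side, and the differences were not tested. For *GRP7*, *upf1-5* gave a ratio of 0.864 in WT and 1.13 in *upf3-1*. For *PTB2*, *upf3-1* gave 1.16 in WT and 0.886 in *upf1-5*. For *PTB3*, *upf1-5* went with 1.01 in WT, which is nearly level, and with 0.903 in *upf3-1*. These 3 pairs of values kept their sides of 1 with libraries scaled to the median ratio or to the 75th percentile. For *GRP8*, *upf3-1* went with 0.999 in WT, which is level, and with 1.07 in *upf1-5*. This pair did not keep its sides, since 0.999 turns to 1.03 and 1.04 under these scalings. With the libraries scaled to the same summed FPKM, the second value of *PTB2* turns to 1.14.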

How the results depend on the processing

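Over 30 ratios of members and 180 values under other settings, 169 stayed on the same side of 1 and of 2-fold, whatever their size, and 11 went to the other side of 1. The count of 169 overstates stability. A pseudocount cannot carry a ratio across 1 or up to 2-fold, and the deposited folds went into the levels themselves. Only the scalings of the libraries could move a value freely, and all 11 arose under them. The ratio of *GRP8* in *upf3-1* to WT became 1.03 with libraries scaled to the median ratio, 1.04 with the 75th percentile, and 1.3 with the summed FPKM. This last scaling, chosen after seeing the data, gave ratios of *upf3-1* to *upf1-5* of 1.12 for *GRP8*, 1.17 for *PTB1*, 1.05 for *PTB2*, and 1.18 for *PTB3*. It gave ratios of the double mutant to *upf1-5* of 1.14 for *PTB2* and 1.1 for *PTB3*, and for *PTB3* ratios to WT of 1.25 in *upf3-1* and 1.16 in the double mutant. The sum of *GRP7* and *GRP8* in the double mutant became 1.02 times WT. The same scaling moved the share of higher loci among those changed from 68.4% to 89.2% for the double mutant over *upf1-5* and from 62.4% to 83.1% for *upf3-1* over *upf1-5*.

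The counts of changed loci followed the thresholds. For *upf1-5* against WT the count of 1968 became 4199 at 1.5-fold, 510 at 4-fold, 1031 with a pseudocount of 1, and 1124 with 1 FPKM required in both libraries. For *upf3-1* against WT 4257 became 7990 at 1.5-fold and 1281 at 4-fold, and for the double mutant 4381 became 8121 and 1430. For the double mutant against *upf1-5* 2843 became 6398, 750, and, with the pseudocount of 1, 1840, and for *upf3-1* against *upf1-5* 2821 became 6261, 708, and 1791. For the double mutant against *upf3-1* 2302 became 4957, 673, and 1404, and 1420 with 1 FPKM required in both. The median log2 ratio of the 9 linked genes in the double mutant went from 1.81 to 0.88 with a pseudocount of 1 and to 0.99 with 1 FPKM required in both libraries. The cause was not tested. No paired analysis was possible because each genotype has 1 library, so no library could be left out either.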
